A study of Mus musculus with 6 samples.

Results

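The PERK-ATF4 amino acid and stress targets are 36 genes listed by symbol: the kinase PERK and its substrate eIF2 alpha, the transcription factor ATF4 with its partners, and genes that ATF4 is known to regulate. All 36 symbols matched 1 gene each among the 46603 genes in the count tables, and all 36 passed the filter on low counts, which left 12767 genes. Their transcripts were counted by RNA sequencing in macrophages grown from the bone marrow of C57BL/6/J mice aged 7 weeks. All cultures grew with 10% serum and 20% medium from L929 fibroblasts, and were detached on day 6 and plated at 800000 cells per well. Medium conditioned by cancer cells was added 6 h later. In 3 libraries this medium held lipids (with lipids), and in 3 it lacked them (without lipids). The comparison asks which macrophage transcripts depend on lipids in the cancer cell medium. Both groups received conditioned medium, so no unstimulated macrophages enter it. Which cancer line was used, how lipids were removed and how long exposure lasted: none of this is given in the sources used here.

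PERK (Eif2ak3) is a kinase in the membrane of the endoplasmic reticulum that senses unfolded proteins and membrane lipid stress. It phosphorylates eIF2 alpha (Eif2s1), which slows translation of most mRNAs while translation of Atf4 mRNA goes up. ATF4 then raises genes for amino acid synthesis and uptake, tRNA charging and feedback. The kinases GCN2, PKR and HRI act on the same eIF2 site, and mTORC1 also raises ATF4, so these genes report on the shared response rather than on PERK alone. Most control of PERK is at the protein level, which transcript counts do not show.

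ATF4 binds with C/EBP proteins to a composite element. The RefSeq promoter table (GRCm38.p6, a short window around each transcription start) held 30 of the 36 genes, and Eif4ebp1, Aldh1l2, Cth, Slc7a5, Nars and Wars were not in it. The letters TGATGNAAN were searched on both strands, and 11 of the 30 genes held a match, against 4.5% of all 27025 genes in the table. The exact form TGATGCAAT was in 3 of them, Aars, Iars and Nupr1, against 0.222% of all genes. A match was found in 2 of the 9 genes that passed the test described below, Slc7a11 and Trib3, and in 9 of the 21 others. These are descriptions of letters in short windows, and an element outside the window is not seen. The 5 windows below are shown because they compare the passing genes with Chac1, Asns and Nupr1, which did not pass. Each runs 5′ to 3′ on the strand of its gene, with the matched bases in capitals.
Slc7a11, chr3:50443633-50443699, minus strand: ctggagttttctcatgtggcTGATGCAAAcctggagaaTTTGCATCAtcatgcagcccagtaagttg
Trib3, chr2:152344029-152344057, minus strand: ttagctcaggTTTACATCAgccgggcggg
Chac1, chr2:119351028-119351076, plus strand: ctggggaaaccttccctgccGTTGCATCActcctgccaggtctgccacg
Asns, chr6:7693210-7693252, minus strand: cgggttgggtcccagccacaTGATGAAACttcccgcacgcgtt
Nupr1, chr7:126625553-126625601, minus strand: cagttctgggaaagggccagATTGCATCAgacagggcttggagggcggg
The Slc7a11 window holds 2 matches in opposite orientation, the first beginning 66 bases and the other 48 bases before the start. The matches begin 194 bases before the start in Chac1, 111 in Nupr1 and 23 in Asns. In Trib3 the match begins at base 14 after the start.

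Libraries held 19429022 to 25323053 counts, a depth at which 3 counts, the most that a count of 0 allows, are 0.118 to 0.154 CPM (counts per 1000000 counts). That limit covers counting error only. Values below are CPM scaled by trimmed mean of M-values (TMM) factors. Libraries without lipids differed more among themselves, and replicate 1 of that group stood apart at -17.7 on the second principal component, where the others lay between -0.62 and 10.5. All 8 macrophage markers examined were above 3 counts in every library, with summed levels of 29182 to 29539 CPM with lipids and 29500 to 34376 CPM without. Most of that sum is Lyz2, and single markers differed both ways: Cd68 was lower with lipids (-0.55 log2, edgeR adjusted p = 0.000306), and Itgam (0.56, 7.72e-05) and Fcgr1 (0.29, 0.00815) were higher. All 6 fibroblast and stroma markers were above 3 counts in every library too, summing to 120 to 127 CPM with lipids and 124 to 169 CPM without. All 6 had negative log2 fold changes, the direction of the 9 genes below, and 1, Col3a1, passed (-0.50, edgeR adjusted p = 0.014). Their part in the results below was not tested. Dendritic cell, neutrophil, mast cell and epithelial markers summed to at most 1.40 CPM in any library, and Ly6g, the T cell marker Cd3e, Mcpt4, Tpsb2, Krt8 and Krt18 were at 0 in all 6. In bulk RNA, fewer cells of a type and less RNA per cell cannot be told apart.

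Macrophages given medium with lipids had lower transcript levels of Atf4 itself, of the stress factors Ddit3 and Atf5 and of the feedback genes Trib3 and Ppp1r15a. The cystine transporter genes Slc7a11 and Slc3a2, the serine synthesis gene Phgdh and the tRNA ligase gene Sars were also lower. The transcripts of PERK and eIF2 alpha differed by 0.02 log2 or less, and most amino acid enzymes and tRNA ligases did not pass. Of the 36 genes, 9 fell with lipids and 0 rose (quasi-likelihood test of edgeR, adjusted p under 0.05 over all genes). Among all genes tested, 6.87% were lower and 4.58% higher with lipids. The median log2 fold change was -0.12 over the 36 genes and -0.0032 over all genes tested. Of the 36, 27 were negative, against 50.8% of all genes. The groups did not overlap for 12 of the 36 genes, against 30.5% of all genes tested, so the share of genes with separate groups lay near the background.

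These counts depended on single libraries and on the scaling. Dropping replicate 1, 2 or 3 with lipids left 1, 2 and 3 of the 36 genes lower, where 3.67%, 3.27% and 3.75% of all genes tested were lower. Dropping replicate 2 without lipids left 1, against 3.69% of all genes. A count of 1 of 36, there and without replicate 1 with lipids, lay near the background. Dropping replicate 1 without lipids gave 12, against 15.1% of all genes, and dropping replicate 3 without lipids gave 12, against 6.69%. Atf4, Ddit3, Atf5, Phgdh, Slc3a2 and Sars each lost their call when any 1 library with lipids, or replicate 2 without lipids, was dropped, with edgeR adjusted p-values up to 0.161. Their estimates moved less: Atf4 was at -0.288, -0.281 and -0.291 log2 with replicate 1, 2 or 3 with lipids dropped and at -0.247 with replicate 2 without lipids dropped. Scaled by library totals alone, 4 were lower and 1, Nupr1, was higher, where 4.67% of all genes tested were lower and 9.72% higher.

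**Figure D1:**
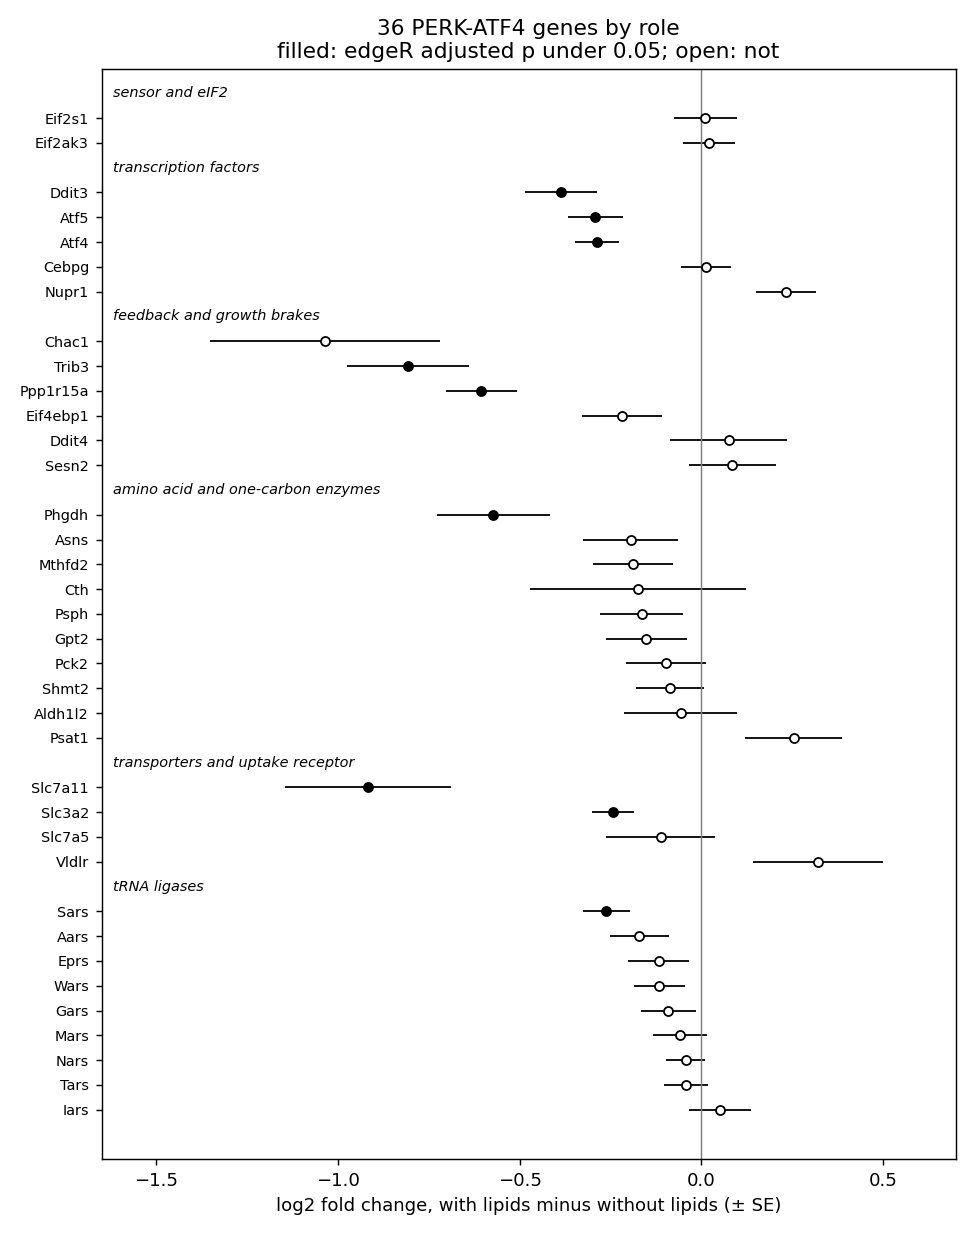
Log2 fold change of each of the 36 genes (with lipids minus without lipids, horizontal axis) with its standard error, from the fit over 6 libraries, grouped by role on the vertical axis. Filled points passed an edgeR adjusted p of 0.05. All 9 filled points lie left of 0, Chac1 lies farthest left at -1.04 without passing, and the 2 genes of the sensor group lie near 0.

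The sensor and its substrate showed no detectable change. Eif2ak3 (ENSMUSG00000031668, chromosome 6, 70844515 to 70905245, GRCm38) was at 39.8, 43.8 and 40.0 CPM with lipids and 40.4, 38.9 and 42.5 CPM without. These ranges overlap, and the log2 fold change was 0.02 (SE 0.07, edgeR adjusted p = 0.879). Eif2s1, which encodes the eIF2 alpha subunit, was at 0.01 (SE 0.09, edgeR adjusted p = 0.95).

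Of the 5 transcription factor genes, 3 fell with lipids and 0 rose, where 6.87% of all genes tested fell and 4.58% rose. Atf4 (ENSMUSG00000042406, chromosome 15, 80255184 to 80257541) encodes the factor that the pathway converges on. It was at 200, 199 and 201 CPM with lipids and 248, 258 and 227 CPM without, so all libraries with lipids lay below all those without. The difference was -0.29 log2 (SE 0.06, edgeR adjusted p = 0.0122), or 1.22-fold. Per length of annotated exons Atf4 had the highest mean of the 36 genes in both groups, 84.8 RPKM (CPM per kilobase) with lipids and 103.5 RPKM without. The next gene was Nars with lipids, at 83.5 RPKM, and Slc3a2 without, at 87.2 RPKM.

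Ddit3 (ENSMUSG00000025408, chromosome 10, 127290774 to 127296288) encodes CHOP, a factor linked to cell death under prolonged stress. It was at 20.98, 20.1 and 21.4 CPM with lipids and 23.3, 30.1 and 28.2 CPM without. The groups were separate, and replicate 1 without lipids lay nearest to the other group. Ddit3 differed by -0.39 log2 (SE 0.10, edgeR adjusted p = 0.0297). It was the least stable of the 9 calls, passing in 6 of 12 alternatives, and also missed when replicate 3 without lipids was dropped (0.0567) and with library totals alone (0.0561). Exons of Ddit3 share 68 bases, 3.97% of their length, with Mars on the other strand, and the strand setting of the counting is not given in the sources used here. Mars held 9176 counts over the 6 libraries against 3071 for Ddit3, and its own log2 fold change was -0.06.

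Atf5 (ENSMUSG00000038539, chromosome 7, 44812256 to 44816658), a relative of ATF4 tied to mitochondrial stress, was at 29.9, 28.4 and 30.2 CPM with lipids. Without lipids it was at 34.5, 38.6 and 35.2 CPM, all above the other group. This is -0.29 log2 (SE 0.07, edgeR adjusted p = 0.0292). Cebpg, which encodes a dimer partner of ATF4, was at 0.01 (SE 0.07). Nupr1, a small stress-induced chromatin protein, went the other way, at 19.1, 20.9 and 21.2 CPM with lipids and 16.8, 17.7 and 17.6 CPM without. Its groups did not overlap, but the log2 fold change of 0.23 did not pass (SE 0.08, edgeR adjusted p = 0.101) other than with library totals alone (0.0323).

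Of the 6 feedback and growth brake genes, 2 fell and 0 rose, where 6.87% of all genes tested fell and 4.58% rose. Ppp1r15a (ENSMUSG00000040435, chromosome 7, 45522916 to 45526268) encodes GADD34, which brings a phosphatase to eIF2 and ends the block on translation. It was at 16.1, 16.3 and 17.8 CPM with lipids and 22.2, 26.9 and 27.3 CPM without. Every library with lipids lay below every library without, and the difference was -0.60 log2 (SE 0.10, edgeR adjusted p = 0.00275). Of the 9 genes it alone passed in all 12 alternative analyses, where its largest adjusted p was 0.027.

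Trib3 (ENSMUSG00000032715, chromosome 2, 152337422 to 152344032) encodes a pseudokinase that binds ATF4 and CHOP and dampens their activity. It was at 4.79, 6.30 and 7.34 CPM with lipids and 10.9, 12.6 and 8.86 CPM without. No library of 1 group reached the other, and replicate 3 without lipids was the lowest of its group. Trib3 differed by -0.81 log2 (SE 0.17, edgeR adjusted p = 0.0111), or 1.75-fold, on 106 to 238 counts per library. It passed in 10 of the 12 alternatives and missed without replicate 1 with lipids or replicate 2 without lipids (largest edgeR adjusted p = 0.0649).

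Chac1, which breaks down glutathione, had the largest estimate of the 36 genes at a low level. It was at 1.13, 0.96 and 0.89 CPM with lipids and 1.89, 3.08 and 1.24 CPM without, from 19 to 58 counts per library. Groups were separate, but the libraries without lipids ranged from 1.24 to 3.08 CPM. A log2 fold change of -1.04 did not pass (SE 0.32, edgeR adjusted p = 0.0601). It passed in 5 of 12 alternatives, among them DESeq2, the fit without the filter and the fits with replicate 1 or 3 from the lipid-free group left out. Eif4ebp1, a brake on cap-dependent translation, was at -0.22 (SE 0.11, edgeR adjusted p = 0.24). The mTORC1 inhibitors Sesn2 and Ddit4 were at 0.09 and 0.08, with SE of 0.12 and 0.16.

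**Figure D2:**
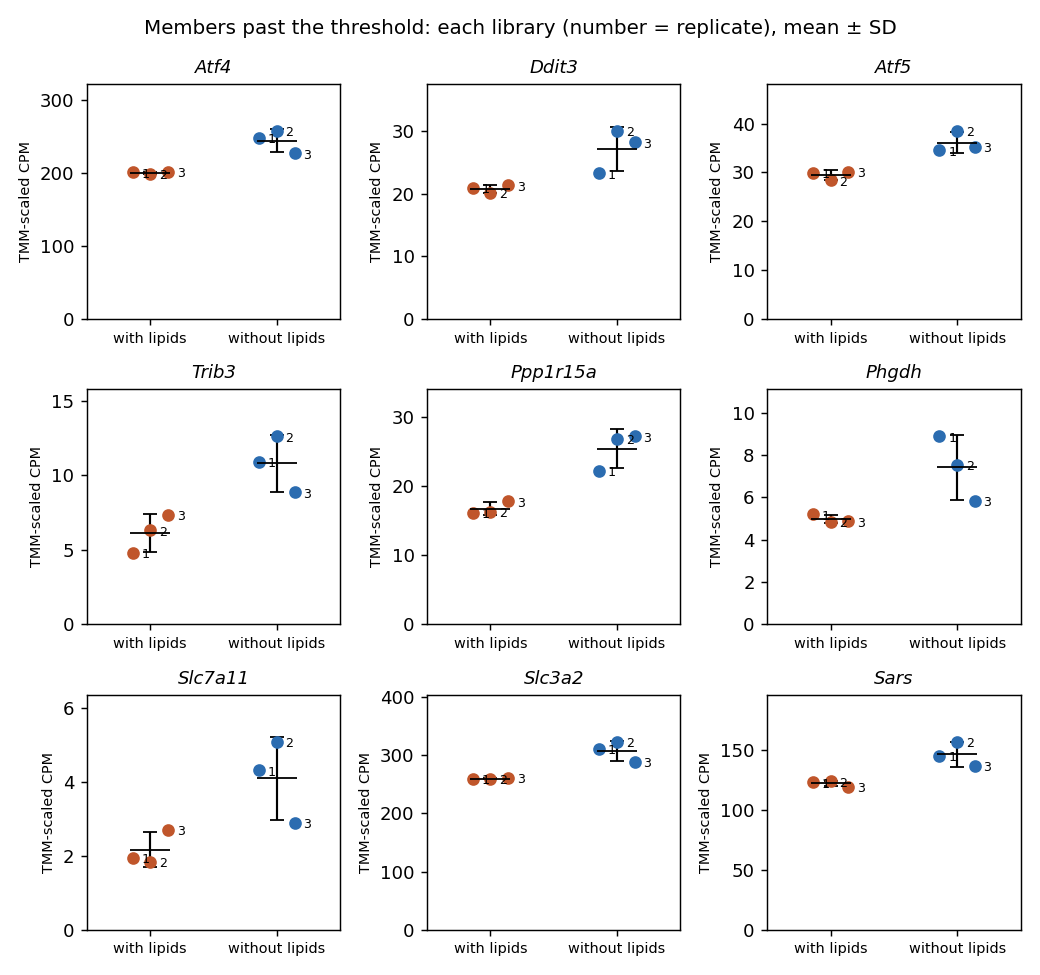
TMM-scaled CPM (vertical axes from 0) of the 9 genes that passed, for each library by group (horizontal axis), with the replicate number beside each point and bars for mean ± SD (n = 3). In each panel the 3 points with lipids lie below the 3 points without. For Slc7a11, replicate 3 with lipids at 2.71 CPM nearly meets replicate 3 without lipids at 2.89 CPM.

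Of the 10 amino acid and one-carbon enzymes, 1 fell and 0 rose, and 9 had negative values. Over all genes tested 6.87% fell, so a count of 1 lay near the background, and 50.8% had negative values. Phgdh (ENSMUSG00000053398, chromosome 3, 98313170 to 98339990) encodes the dehydrogenase that opens serine synthesis from glycolysis. It was at 5.20, 4.84 and 4.87 CPM with lipids and 8.89, 7.53 and 5.83 CPM without. All libraries without lipids were higher, and they spread more (SD 1.53 CPM against 0.20 CPM). Phgdh differed by -0.57 log2 (SE 0.15, edgeR adjusted p = 0.0367). The count is uncertain, because the annotation holds 9 other genes that match part of the Phgdh transcript at 95.3% identity or more. They held 0 to 5 counts each over the 6 libraries, against 783 for Phgdh itself. With library totals alone it did not pass (edgeR adjusted p = 0.0544).

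Psat1, the aminotransferase of the next step, did not follow Phgdh. It was at 47.2, 43.2 and 42.0 CPM with lipids and 45.01, 37.6 and 28.5 CPM without, so the groups overlap. Its log2 fold change of 0.26 did not pass (SE 0.13, edgeR adjusted p = 0.255), other than with no filter (0.032) or when replicate 1 without lipids was dropped (0.00547). The ratio of Psat1 to Phgdh counts within a library needs no scaling between libraries. It was 9.07, 8.92 and 8.64 with lipids and 5.07, 5.00 and 4.88 without, or 8.88 ± 0.22 against 4.98 ± 0.09 (SD, n = 3 each). The ratio in replicate 3 without lipids lay near those of its fellows, although both genes were lowest there. For the difference of 0.83 log2 a two-sided exact permutation test gave p = 0.1, the lowest p possible with groups of 3. It was 1 of 7 ratios computed, all chosen after the values were seen, and its adjusted p was 0.233. Psph, the phosphatase that completes serine, was at -0.16 (SE 0.11), and 10.4% of its exon bases are shared with the more abundant Cct6a on the other strand.

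**Figure D3:**
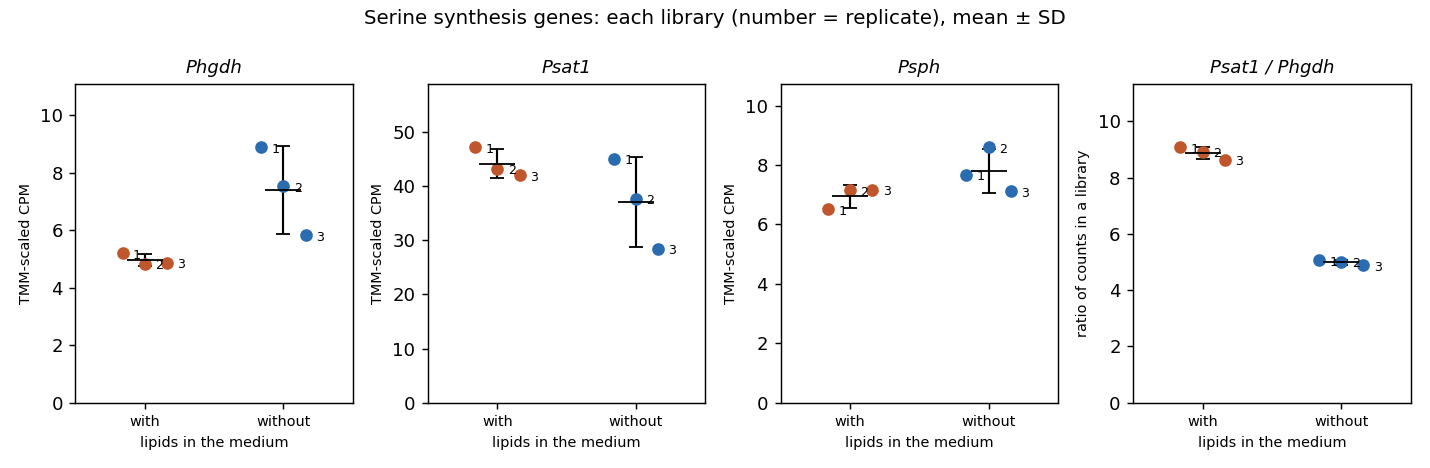
TMM-scaled CPM of Phgdh, Psat1 and Psph and the ratio of Psat1 to Phgdh counts (vertical axes from 0) in each library, by lipids in the medium (horizontal axis), with replicate numbers and mean ± SD (n = 3). The ratios lie between 8.64 and 9.07 with lipids and between 4.88 and 5.07 without, while Psat1 alone overlaps between groups.

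The remaining 7 enzymes did not pass. Asns (ENSMUSG00000029752, chromosome 6, 7675169 to 7693254) makes asparagine and is a classic ATF4 target. It was at 45.2, 39.4 and 38.8 CPM with lipids and 56.5, 48.0 and 36.9 CPM without, so replicate 3 without lipids was the lowest of all 6. Its log2 fold change was -0.19 (SE 0.13, edgeR adjusted p = 0.382), and it passed when that library was left out (0.04). Mthfd2, a mitochondrial folate enzyme, was also lowest in that library, at 53.5, 56.4 and 54.8 CPM with lipids and 70.7, 67.2 and 50.002 CPM without. Its log2 fold change was -0.19 (SE 0.11, edgeR adjusted p = 0.311), and it too passed without that library (0.00937). Shmt2, which moves carbon from serine to folate, was at -0.09, Gpt2, an alanine aminotransferase, at -0.15, and Pck2, the mitochondrial PEP carboxykinase, at -0.10. Cth, which makes cysteine, was at -0.17 with an SE of 0.30 on 9 to 13 counts per library. Aldh1l2, a mitochondrial folate dehydrogenase, was at -0.06 (SE 0.16), and 14.1% of its exon bases are shared with D10Wsu102e, which held 7241 counts against 375.

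Of the 4 transporter and receptor genes, 2 fell and 0 rose, where 6.87% of all genes tested fell and 4.58% rose. The 2 that fell encode subunits of the cystine transporter. Slc7a11 (ENSMUSG00000027737, chromosome 3, 49892526 to 50443614) encodes xCT, which imports cystine for glutathione, and is also a target of NRF2. It was at 1.94, 1.84 and 2.71 CPM with lipids and 4.31, 5.09 and 2.89 CPM without. The replicates 3 of both groups lay close, but the groups were separate. Slc7a11 differed by -0.92 log2 (SE 0.23, edgeR adjusted p = 0.0265) on 43 to 96 counts per library. It did not pass without replicate 1 or 2 with lipids or replicate 2 without lipids (largest edgeR adjusted p = 0.127). A stretch of about 4.04% of its transcript is 96.2% identical to part of the abundant tubulin gene Tuba1b, and how reads in it were assigned was not tested.

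Slc3a2 (ENSMUSG00000010095, chromosome 19, 8706882 to 8723369) encodes CD98hc, the heavy chain that carries xCT and the leucine transporter LAT1 to the surface. It was at 259, 260 and 261 CPM with lipids and 311, 323 and 289 CPM without. The libraries with lipids were nearly identical, and all lay below the other group. The difference was -0.24 log2 (SE 0.06, edgeR adjusted p = 0.0213). Per length of merged exons, the heavy chain transcript was far more abundant than those of its partners. It was at 73.7 RPKM with lipids, against 4.84 RPKM for Slc7a5 and 0.16 RPKM for Slc7a11. The merged exons of Slc7a11 hold 13922 bases and its longest transcript 9223, which lowers its RPKM. Slc7a5, which encodes LAT1, was at -0.11 (SE 0.15, edgeR adjusted p = 0.682), with 14.1 CPM in replicate 3 without lipids against 22.1 CPM in both of its fellows. Vldlr, a lipoprotein receptor, had the most positive estimate of the 36 genes, 0.32, on 36 to 86 counts per library and did not pass (SE 0.18, edgeR adjusted p = 0.281).

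Of the 9 tRNA ligase genes, which charge tRNAs with amino acids, 1 fell and 0 rose, and 8 had negative values (median log2 fold change -0.09). Over all genes tested 6.87% fell, so a count of 1 lay near the background. Negative values were held by 50.8% of all genes and by 78.6% of the other cytosolic ligase and scaffold genes described below. Sars (ENSMUSG00000068739, chromosome 3, 108424865 to 108445209), the seryl-tRNA ligase, was at 123, 124 and 120 CPM with lipids and 146, 157 and 137 CPM without. Again no library with lipids reached the other group, and the difference was -0.26 log2 (SE 0.06, edgeR adjusted p = 0.0243). Aars, for alanine, was at -0.17 (SE 0.08, edgeR adjusted p = 0.207). Eprs, for glutamate and proline, and Wars, for tryptophan, were both at -0.12. Gars, for glycine, was at -0.09, Mars, for methionine, at -0.06, Nars, for asparagine, at -0.04, Tars, for threonine, at -0.04, and Iars, for isoleucine, at 0.05. Their adjusted p-values by edgeR lay between 0.207 and 0.745. Part of the Iars transcript, 37.4% of it, is 96% identical to Gm4849, which held 7 counts.

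Members did not all vary alike among the 3 libraries without lipids. Replicate 3 was the lowest of that group for 8 of 9 tRNA ligases and for 6 of 10 amino acid enzymes. Replicate 1 was the lowest for 3 of 5 transcription factors and for 4 of 6 feedback genes. Summed over the 9 ligases, levels were 1460, 1391 and 1263 CPM in replicates 1, 2 and 3 without lipids, against 1314, 1300 and 1257 CPM with lipids. For 28 of the 36 genes the SD of log2 CPM was larger without lipids than with them. Neither this count nor those by replicate were computed over all genes. Libraries without lipids differed more over all genes tested too. There the mean correlation of a library with the rest of its group was 0.9942 to 0.9958 without lipids and 0.9978 to 0.9981 with them. The fit uses 1 dispersion per gene for both groups.

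**Figure D4:**
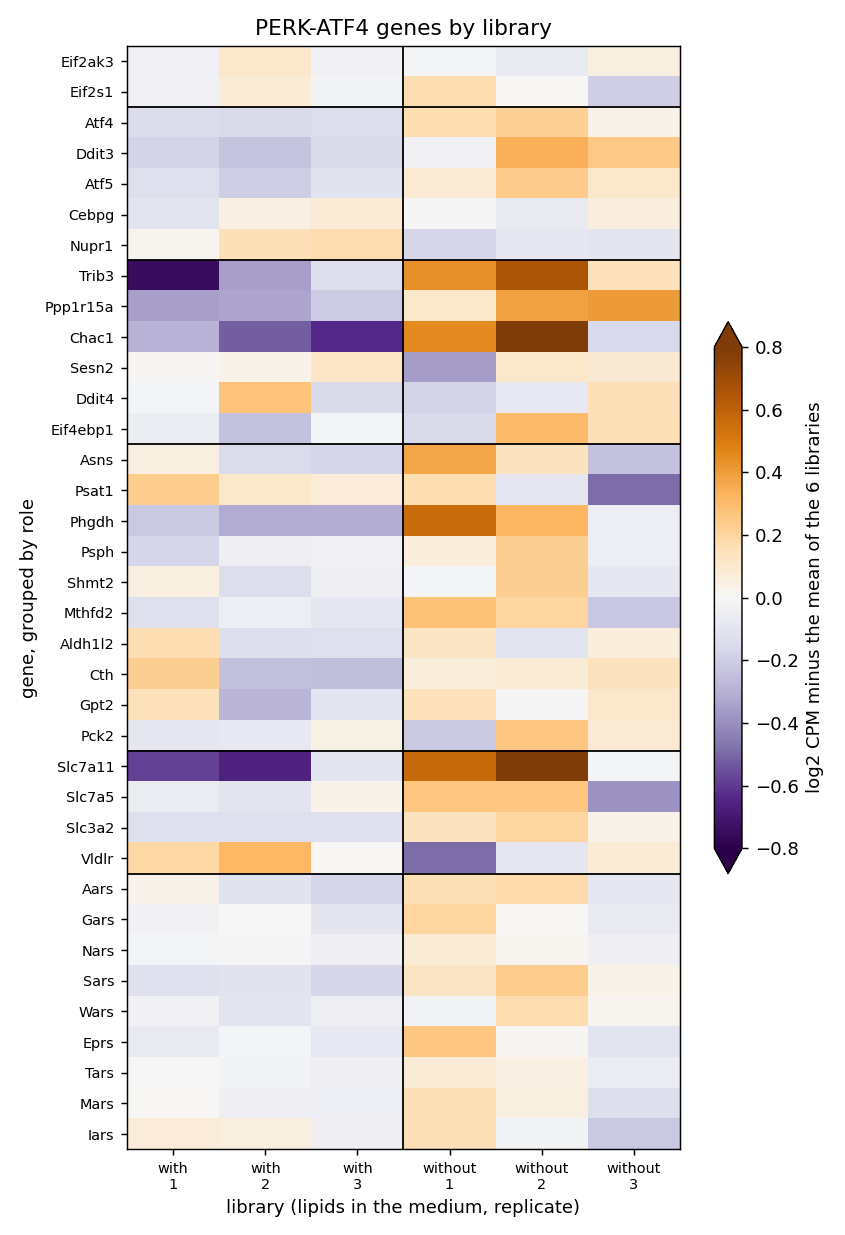
Log2 CPM of each of the 36 genes in each library minus the gene's mean over the 6 libraries (colour, purple lower and orange higher), with libraries on the horizontal axis and genes grouped by role on the vertical axis. Black lines part the roles and the groups. The 9 genes that passed are purple in all 3 libraries with lipids, and 8 of the 9 tRNA ligases are lowest, among the libraries without lipids, in replicate 3.

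Within-library ratios to Atf4 set the feedback genes against the factor itself. Ppp1r15a counts per Atf4 count were 0.0805, 0.0823 and 0.0886 with lipids and 0.0897, 0.104 and 0.12 without, so the groups did not overlap. The ratio of Trib3 to Atf4 did not overlap either, at 0.0307 ± 0.0064 with lipids and 0.044 ± 0.0049 without (SD, n = 3 each). The ratios of Ddit3 and Asns to Atf4 overlapped between groups. For both ratios without overlap the exact permutation test was again at its limit, p = 0.1, with an adjusted p of 0.233 over the 7 ratios. With groups of 3 any ratio without overlap gets that p, so the test adds nothing to the lack of overlap. These ratios too were chosen after the values were seen.

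Other genes of the pathway were counted from lists that share no gene with the 36. Of 17 tested genes for the other eIF2 kinases, phosphatase subunits and the exchange factor eIF2B, 0 passed, with 2 at an unadjusted edgeR p under 0.05, where 26.6% of all genes tested had such a p. The kinase genes Eif2ak1 (HRI) and Eif2ak4 (GCN2) were at 0.06 and -0.04, and Eif2ak2 (PKR) at 0.18 (SE 0.07, edgeR adjusted p = 0.143). Of 14 other cytosolic tRNA ligase and scaffold genes and 17 mitochondrial ligase genes 0 passed in either list, with 2 in each at an unadjusted edgeR p under 0.05, also fewer than that share, and medians of -0.07 and -0.06.

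Of 20 tested genes among 25 others linked to ATF4, 3 fell with lipids and 0 rose (median -0.01). Among all genes tested, 6.87% fell and 4.58% rose. Atf3, a stress factor downstream of ATF4, was at 128, 132 and 130 CPM with lipids and 214, 215 and 219 CPM without. The replicates of each group lay within a few CPM of each other (edgeR adjusted p = 1.65e-05, passing in all 12 alternatives). Gdf15, a cytokine released by stressed cells, was at 1.04, 1.19 and 1.82 CPM with lipids and 2.68, 6.04 and 3.31 CPM without. Its log2 fold change was -1.57 (SE 0.32, edgeR adjusted p = 0.00961), and the call was lost without replicate 1 with lipids (0.064). Ndrg1, which responds to stress and hypoxia, was at -0.28 (SE 0.07, edgeR adjusted p = 0.0255) and passed in 6 of 12 alternatives. Fgf21 had 0 counts in all 6 libraries.

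Of 17 tested genes among 18 others of folate and one-carbon metabolism, 1 rose, 1 fell and 12 had positive values (median 0.06). Those counts of 1 lay near the background, where 4.58% of all genes tested rose and 6.87% fell. Mtr, methionine synthase, was at 50.8, 50.8 and 52.1 CPM with lipids and 42.8, 38.7 and 40.5 CPM without, higher in every library with lipids. The difference was 0.33 log2 (SE 0.07, edgeR adjusted p = 0.0085). That call was lost without replicate 2 or 3 with lipids (largest edgeR adjusted p = 0.0594). Mthfs, which returns a folate storage form to the active pool, was at -0.38 (SE 0.11, edgeR adjusted p = 0.045) and passed in 4 of 12 alternatives. The lists were not tested against each other.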

How the data were processed

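For 6 libraries the authors deposited whole-number counts per gene, with no normalization. Tools and builds named in the submitters' processing notes are HTSeq, TopHat2 2.1.0, DESeq2 and GRCm38.p4, without roles. Neither annotation release nor strand setting is given in the sources used here. A stranded mRNA kit was used, per the labels' protocols. Symbols, coordinates and exon lengths (all annotated exons merged) came from GENCODE M21 (GRCm38), which matched 46091 of 46603 genes. Unmatched genes held 0.129% to 0.142% of counts.

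Groups came from titles, 3 libraries each. The labels do not tie replicates to separate mice or cultures. The p-values therefore reflect only how these libraries vary, and that variation may be technical. Replicates differed by more than sampling noise and were kept as 6 samples.

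All genes were fitted with edgeR 4.0.16 in R 4.3.3: filterByExpr (minimum count 10, minimum total 15), TMM factors, quasi-likelihood F test, two-sided, Benjamini-Hochberg adjustment over 12767 genes, threshold 0.05. Log2 fold changes are with minus without lipids, so negative values are lower with lipids, and SE came from the F statistic. Alternatives were median-of-ratios factors, library totals, no filter, DESeq2 1.42.0, limma-voom (limma 3.58.1), a replicate block and each library left out in turn, 12 in all.

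The 36 genes and the other lists were chosen with earlier results of these data known. All 36 are named, those past the threshold and 7 core genes with every library's value. From the other lists up to 5 genes past the threshold are named. The list names Gcn1 and Jhdm1d were not matched.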

Additional observations from a re-analysis of the deposited data

How the results depend on the processing

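With median-of-ratios factors and limma-voom 9 of the 36 genes were lower and 0 higher, where 6.70% and 6.62% of all genes were lower. Without the filter and with DESeq2 10 were lower, where 5.42% and 3.97% of all genes in those fits were lower. Both shares are taken over 22922 genes, among them low-count genes that the filter removes. That base differs from the 12767 genes of the main fit. With DESeq2 some of them, such as Cth, got no adjusted p. Without the filter 1 was higher (Psat1), where 4.40% of all genes were. Scaling by library totals gave 4 lower and 1 higher (Nupr1), with a median of -0.0395 for the 36 genes. That scaling moved the split over all genes from 585 higher and 877 lower to 1241 higher and 596 lower, and the median of all genes to 0.07. Leaving out 1 library gave 1 to 12 lower, 0 or 1 higher, and medians from -0.1459 to -0.0872, where the smaller fits have fewer libraries. Over all genes in those fits, 3.27% to 15.1% were lower and 1.69% to 12.0% higher. Among all genes, 1975 were lower and 1566 higher without replicate 1 of the group without lipids, against 474 and 263 without replicate 1 with lipids. All 9 genes past the threshold kept their sign in all 12 alternatives, while 13 of the other genes changed sign in at least 1. With the replicate block 10 were lower, against 7.34% of all genes, 0 were higher, against 5.60%, and the median was -0.11. Same-numbered libraries had deviations that correlated at -0.051, -0.175 and 0.225, so the numbers were not read as pairs. Low counts limit Cth, Chac1, Slc7a11, Vldlr and Aldh1l2, each under 100 counts in every library.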
